A study of Homo sapiens with 24 samples.

Results

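Of the tumour necrosis factor (TNF) superfamily ligands, 7 were measured on a membrane array of inflammatory-response genes: TNF, LTA, LTB, TNFSF4, CD40LG, FASLG and TNFSF11. They were chosen by name from the gene list of the array, where CD40LG and FASLG stand under the older symbols TNFSF5 and TNFSF6, and they make up 7 of the 355 gene rows that carry values. None of the 11 other ligands of the family that were looked for was on the array. The study immunoprecipitated messenger RNA bound to HuR (ELAVL1), an RNA-binding protein that recognises uridine-rich and adenylate/uridylate-rich stretches, from BEAS-2B cells, and hybridised the 33P-labelled product to the array. BEAS-2B is an immortalised human bronchial epithelial line, so the arrays report 1 line in culture.

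The 24 arrays form 8 groups of 3. Cells were left untreated in PBS or stimulated with TNF alpha and IFN gamma together, each at 50 ng/ml, and were taken after 3 h or 18 h. Each of these 4 conditions was precipitated with 3A2, a mouse monoclonal antibody to HuR, or with an IgG1 isotype control. Each group holds biological replicates 1, 3 and 4, which the labels also call sets 1, 3 and 4. The vendor label of the HuR antibody differs between untreated and stimulated arrays, so an effect of stimulation on the HuR arrays and a change of antibody cannot be told apart from the labels, and the protocol names 1 vendor for both. The added TNF protein is not what the TNF row measures, which is the cells' own transcript.

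Ligands of this family are trimers, mostly anchored in the membrane of the cell that makes them, and they signal by clustering receptors of the TNF receptor superfamily. TNF itself is made chiefly by macrophages and T cells, and its messenger RNA carries an AU-rich element in the 3' untranslated region that controls its stability and translation. LTA and LTB are the lymphotoxins: LTA alone uses the TNF receptors, and LTA joined to LTB uses the lymphotoxin beta receptor. TNFSF4 (OX40 ligand) and CD40LG are co-stimulatory ligands of antigen-presenting cells and T cells, FASLG triggers apoptosis through FAS, and TNFSF11 (RANKL) drives osteoclast formation through TNFRSF11A.

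TNF and both lymphotoxin genes lie side by side on chromosome 6, in the order LTA, TNF and LTB along the GRCh38.p14 assembly. The 250 bases upstream of the LTB and TNF start sites are shown because LTB is the ligand whose row was higher on most stimulated arrays, in values given further on, and TNF is a neighbour whose row was not. This pair was picked after the values were seen, and LTB passed in no stimulation comparison. Whether the windows bear on either row was not tested. The sequences are RefSeq's and read 5' to 3' on each gene's own strand, and capitals mark every match to the NF-kB-type pattern GGGNNNNNCC or its reverse complement GGNNNNNCCC. NF-kB is the transcription factor that TNF receptors activate. The LTB window is chr6:31582426-31582675 on the minus strand, and the TNF window is chr6:31575315-31575564 on the plus strand.
LTB: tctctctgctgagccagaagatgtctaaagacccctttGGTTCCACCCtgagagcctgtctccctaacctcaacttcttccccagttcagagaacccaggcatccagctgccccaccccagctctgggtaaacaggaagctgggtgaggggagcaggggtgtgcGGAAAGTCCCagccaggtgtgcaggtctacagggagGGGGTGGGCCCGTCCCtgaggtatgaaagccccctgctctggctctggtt
TNF: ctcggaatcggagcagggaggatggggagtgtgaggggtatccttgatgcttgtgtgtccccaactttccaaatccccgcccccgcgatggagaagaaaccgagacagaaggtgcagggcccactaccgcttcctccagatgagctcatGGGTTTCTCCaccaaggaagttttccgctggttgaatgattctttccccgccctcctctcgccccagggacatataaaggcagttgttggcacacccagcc

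The LTB window held 6 matches to this pattern, 4 of them overlapping one another, and the TNF window held 1. The pattern is loose: 54.4% of the 35116 windows of this length in the RefSeq table held it at least once on either strand. The share of windows with 6 matches was not counted. The single stricter form GGACTTTCC, or its reverse complement GGAAAGTCC, was in 0.333% of the windows. It was in the LTB window, at bases 86 to 78 before the start, where it lies inside a match to the looser pattern, and in none of the windows of the other 5 ligands that had one. The interferon-gamma-type pattern TTCNNNGAA, which is its own reverse complement, was in 6.57% of all windows, once in that of LTB and not in that of TNF. LTA, the other neighbour, had 2 start sites in the table, whose windows held 1 and 3 matches to the looser NF-kB-type pattern and 2 and 1 to the interferon-gamma-type pattern. The remaining windows held 0 to 2 of the former (1 in FASLG, 0 in TNFSF4, 0 and 2 in TNFSF11) and 0 or 1 of the latter (in 1 window of TNFSF11). These letters describe the windows only, and no binding was measured there.

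Values are log2 intensity minus the median of the 355 rows on the same array, so 0 is the middle row of an array. Array medians ran from 2303 to 23848 in the scanner's arbitrary intensity units, and the lowest row lay only 0.49 to 1.36 log2 units below the median, while the highest lay 4.11 to 7.64 above it. Over the 24 arrays the median height of the ligands above the lowest row of the same array was 0.45 (CD40LG) to 1.11 (TNF). Single arrays reached further, to 2.49 for TNF and 2.69 for TNFSF11 in set 1 and to 2.84 for FASLG in set 4. No detection call was used here, and whether these levels differ from membrane background was not tested. To describe the stimulation, 9 NF-kB-responsive genes were listed with earlier results of these data known, so the list is no independent check of it. Of these genes 2 (HuR, 3 h), 1 (HuR, 18 h), 4 (IgG1, 3 h) and 1 (IgG1, 18 h) passed, all higher. In the same order 0.563%, 1.13%, 1.13% and 1.41% of all rows passed. CXCL1, CXCL2, ICAM1 and NFKBIA passed in none. All 9 nevertheless rose in each comparison. The rises at 3 h were 1.52 to 3.93 (HuR) and 1.82 to 4.00 (IgG1), and at 18 h 0.89 to 4.59 (HuR) and 0.96 to 3.52 (IgG1). Rises of at least 1.52 at 3 h thus missed the threshold. IRF1, an interferon-induced transcription factor, rose by 2.75 ± 0.51 (SE) in the HuR and 2.69 ± 0.51 in the IgG1 precipitate at 3 h, and its difference passed in 3 of the 4 stimulation comparisons. The chemokine CXCL8 passed in both precipitates at 3 h (3.93 ± 0.88 and 4.00 ± 0.88). None of 7 epithelial markers, 3 B cell markers or 4 monocyte markers was on the array, so the labelled cell type could not be checked. Of T cell markers 4 of 9 (CD28, CD3E, CD3G and CTLA4) and of pan-leukocyte markers 1 of 2 (PTPRC) were measured. Their summed linear level, in multiples of the array median, was 4.66 to 11.9 in set 1, 3.77 to 9.96 in set 3 and 2.94 to 4.37 in set 4. CD3G alone reached 3.11 log2 units above the array median in set 1 and 2.81 in set 3. The medians of CD3E, CD28, CTLA4 and PTPRC lay below the array median in every set, so the sum is not a measure of leukocyte content.

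Stimulation moved no ligand past the threshold. In limma's moderated test over all 355 rows, with Benjamini-Hochberg adjustment at 0.05, 0 of 7 ligands passed in the HuR precipitate at 3 h, where 0.563% of all rows passed, and 0 of 7 at 18 h, where 1.13% passed. In the IgG1 precipitate 0 of 7 passed at 3 h, against 1.13% of all rows, and 0 of 7 at 18 h, against 1.41%. In this fit no ligand reached an unadjusted p of 0.05 in these 4 comparisons either, where 17, 21, 20 and 22 of the 355 rows did. The fit had no term for set, and results with set as a block are given at the end. The median difference of the 7 ligands was 0.01, -0.10, -0.15 and -0.29 in these comparisons in the same order, beside -0.09, 0.03, -0.09 and 0.01 over all rows. In each of these comparisons the 3 stimulated and 3 untreated arrays of each ligand overlapped, so 0 of 28 pairs of groups were apart, beside 8.24% over all rows.

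**Figure D1:**
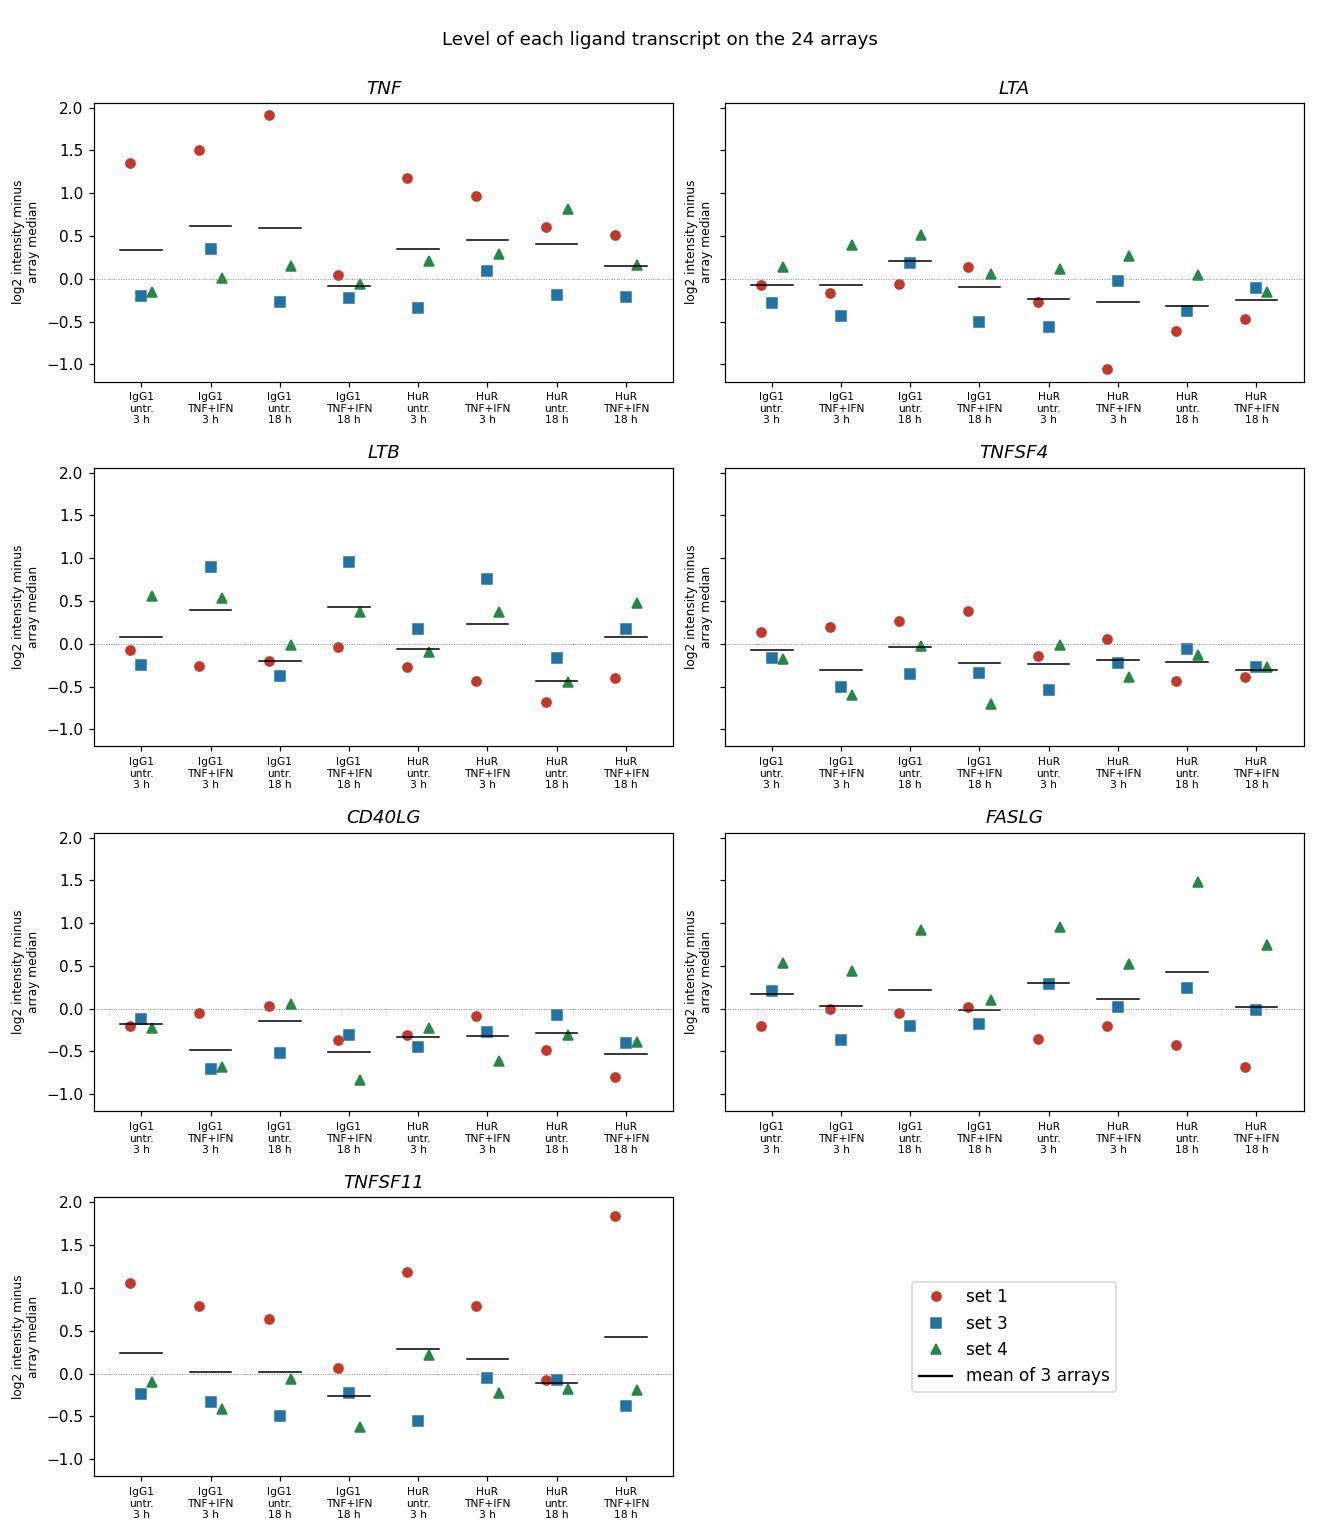
Level of each ligand transcript (log2 intensity minus array median, vertical axis) in the 8 groups of 3 arrays (horizontal axis). Points are single arrays, by set (circle, set 1; square, set 3; triangle, set 4), black lines are group means, and the dotted line is the array median. Set 1 stands above the other sets for TNF and TNFSF11, and set 4 above them for FASLG, in most groups.

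LTB, the membrane-anchoring subunit of the lymphotoxin heterotrimer, had the largest positive difference among the ligands in the IgG1 precipitate, although it did not pass. At 18 h its IgG1 values were -0.20, -0.37 and -0.02 in untreated sets 1, 3 and 4 and -0.04, 0.95 and 0.38 in the stimulated ones. These are relative to the array medians, which were 11831, 5655 and 15945 untreated and lower, 3021, 2303 and 12399, stimulated. Before centring, the LTB intensities were 10278, 4362 and 15751 untreated and 2940, 4451 and 16093 stimulated. The difference was 0.63 ± 0.35 (SE; 95% confidence interval -0.10 to 1.35; adjusted p = 0.979, limma). Sets 3 and 4 were higher after stimulation and set 1 moved little, and the untreated array of set 4 lay above the stimulated array of set 1. On the same stimulated arrays the summed level of the 5 leukocyte markers was 3.70 to 11.9, with a median of 9.96, beside 3.78 to 6.23 with a median of 4.46 on the untreated ones. Of these markers CD3G differed by 1.47 ± 0.81 and the other 4 by -0.27 to 0.03, none passed, and their part in the LTB difference was not tested.

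At 18 h in the HuR precipitate LTB stood at -0.68, -0.17 and -0.44 untreated and at -0.40, 0.17 and 0.48 after stimulation, a difference of 0.51 ± 0.35 (interval -0.21 to 1.24). All 3 sets were higher after stimulation here, but the groups overlapped. At 3 h the HuR values went from -0.27, 0.17 and -0.10 to -0.44, 0.75 and 0.37, and the IgG1 values from -0.08, -0.24 and 0.55 to -0.26, 0.90 and 0.54. The differences at 3 h were 0.29 ± 0.35 and 0.31 ± 0.35. Set 3 had the largest difference in both, and set 1 was lower after stimulation in each precipitate.

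Paired within sets, LTB was higher after stimulation in 4 of 4 pairs of set 3 (0.34 to 1.33), in 3 of 4 of set 4 (-0.02 to 0.92) and in 2 of 4 of set 1, with means of 0.85, 0.44 and 0.02. Of all 355 rows, 4.51% were higher in 7 of the 8 pairs of sets 3 and 4, as LTB was, and a further 9.86% in 8 of 8. Over the 12 pairs of all sets LTB was higher in 9, a count that 14.4% of rows reached or passed. Without set 1 the IgG1 difference at 18 h was 0.86 (adjusted p = 0.179, limma), without set 3 it was 0.28 (adjusted p = 0.995) and without set 4 it was 0.74 (adjusted p = 0.997), so LTB passed in none. Its neighbours in the order of the table, LTA and LTB4R, had mean differences of -0.03 and 0.03 over the same 8 pairs of sets 3 and 4. That order runs by gene symbol around these rows, and spot positions on the membrane were not used.

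Group means of LTB ran from -0.43 ± 0.25 (SD, n = 3) in untreated HuR at 18 h to 0.43 ± 0.50 in stimulated IgG1 at 18 h. In order from the lowest they were -0.43, -0.20, -0.06, 0.08, 0.08, 0.23, 0.39 and 0.43, each step being smaller than the larger SD of the groups it joins. The 4 stimulated groups held the top 4 places, the lowest of them 0.0831 beside 0.0775 in the highest untreated group, a step far smaller than the SDs. Agent alone accounted for 23.8% of the variation of LTB over the 24 arrays, beside a median of 2.25% over all rows. Degrees of freedom alone would give 4.35%. CD40LG, lower after stimulation in 8 of 12 within-set pairs, had a share of 20.1%.

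**Figure D2:**
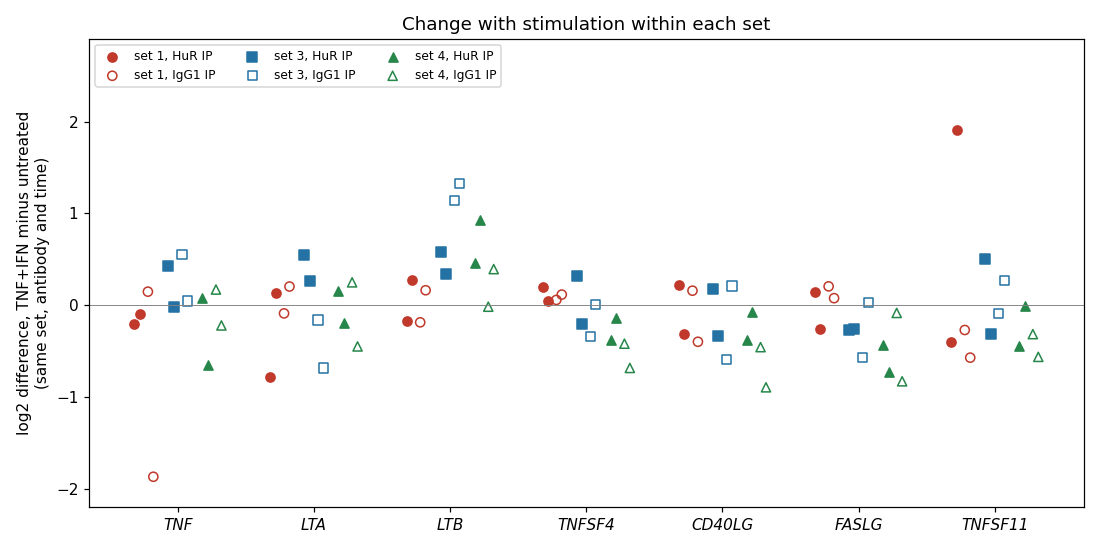
Difference of log2 level between stimulated and untreated arrays of the same set, antibody and time (vertical axis) for each ligand (horizontal axis). Filled symbols are HuR and open symbols IgG1 precipitates, with the 3 h point left of the 18 h point in each pair. LTB is above 0 in 7 of 8 pairs of sets 3 and 4, and 1 TNF pair of set 1 lies at -1.87.

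TNF, the founding cytokine of the family, did not change detectably in its own transcript. In the IgG1 precipitate at 18 h it stood at 1.91, -0.27 and 0.15 in untreated sets 1, 3 and 4 and at 0.04, -0.23 and -0.06 after stimulation, a difference of -0.68 ± 0.55 (interval -1.83 to 0.47). Set 1 alone had a large difference, -1.87, and without it the fitted difference was -0.09, beside -1.04 without set 3 and -0.91 without set 4. The stimulated array of that set 1 pair was dim, with a median intensity of 3021, beside 9636 to 23848 on the other arrays of set 1. At 3 h the IgG1 values were 1.36, -0.21 and -0.16 untreated and 1.51, 0.35 and 0.01 stimulated, a difference of 0.29 ± 0.55. In the HuR precipitate the 3 h values were 1.18, -0.34 and 0.21 untreated and 0.97, 0.09 and 0.29 stimulated, and the 18 h values 0.61, -0.19 and 0.81 untreated and 0.51, -0.21 and 0.17 stimulated. These gave 0.10 ± 0.55 and -0.25 ± 0.55. TNF was higher after stimulation in 6 of 12 within-set pairs, and each of these intervals reached past 1 log2 unit on at least 1 side.

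LTA, the soluble lymphotoxin, differed by -0.31 to 0.07 between stimulated and untreated groups and was higher in 6 of 12 within-set pairs. TNFSF4 differed by -0.23 to 0.04 and was higher in 6 of 12 pairs. CD40LG differed by -0.36 to 0.01, with 8 of 12 pairs lower. The lowest of these, in the IgG1 precipitate at 18 h, was -0.36 ± 0.22 (interval -0.82 to 0.10). FASLG was lower after stimulation in 8 of 12 pairs and differed by -0.41 to -0.15, with standard errors of 0.45. In sets 3 and 4 it was lower in 7 of 8 pairs, with a mean of -0.39, as were 7.32% of rows, and a further 1.97% were lower in 8 of 8. TNFSF11 differed by -0.29 to 0.53, with 9 of 12 pairs lower, and its only positive difference, in the HuR precipitate at 18 h, came with values of 1.84, -0.38 and -0.19 against -0.08, -0.07 and -0.19 untreated. In sets 3 and 4 TNFSF11, TNFSF4 and CD40LG were each higher in 2 of 8 pairs, as were 17.2% of rows. The share of all rows with as many lower pairs over the 12 was not taken.

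The comparison of HuR with IgG1 precipitates asks which transcripts HuR held. No ligand passed in untreated cells at 3 h, in stimulated cells at 3 h, in untreated cells at 18 h, in stimulated cells at 18 h or in the mean of these 4 conditions, and 0% of all 355 rows passed in each of these 5 comparisons (limma). In this fit no ligand reached an unadjusted p of 0.05 in them, and 1, 0, 0, 11 and 12 of the 355 rows did, in the same order. The median of the 7 ligands was -0.04 in the mean over conditions, beside -0.03 over all rows. Of the 28 comparisons of HuR with IgG1 in single conditions, 1 had groups that did not overlap, beside 3.94% over all rows and 8.17% in that condition. It was CD40LG in untreated cells at 3 h, with -0.31, -0.45 and -0.23 in HuR against -0.21, -0.12 and -0.22 in IgG1. The gap between the nearest arrays there was at the limit of the second decimal.

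Averaged over the 4 conditions, the TNF transcript differed between HuR and IgG1 precipitates by -0.03 ± 0.27 (interval -0.60 to 0.55). Its 12 within-set pairs were higher in HuR in 7 and lower in 5, with all 4 pairs of set 4 higher and 3 of 4 of set 1 lower. LTA had the lowest mean difference, -0.26 ± 0.16 (interval -0.59 to 0.07), and was lower in HuR in 10 of 12 pairs. By set, its pairs averaged -0.56 in set 1, -0.01 in set 3, where 2 of 4 were higher, and -0.20 in set 4, and without set 1 the fitted mean was -0.11. Its largest single difference was in untreated cells at 18 h, where HuR values of -0.61, -0.38 and 0.05 stood against -0.06, 0.18 and 0.51 in IgG1, a difference of -0.52 ± 0.31 (interval -1.18 to 0.13). All 3 sets were lower in HuR there, and the groups overlapped because set 4 was higher than set 1 in both precipitates. LTB was lower in HuR in 9 of 12 pairs, with a mean of -0.22 ± 0.17. In sets 3 and 4 LTA was higher in HuR in 2 of 8 pairs, as were 14.1% of rows, and LTB in 3 of 8, as were 17.2%. The share of all rows with such counts over the 12 pairs was not taken.

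FASLG was higher in HuR than in IgG1 in 8 of 8 pairs of sets 3 and 4, with differences of 0.08 to 0.65, and lower in 4 of 4 pairs of set 1, with differences of -0.70 to -0.15. FASLG was the only row of the 355 (0.282%) with either 8 of 8 higher pairs in sets 3 and 4 or this opposition between the sets, a count made after its values were seen. Its mean over all sets was 0.11 ± 0.23 (interval -0.36 to 0.59), and without set 1 it was 0.35 (adjusted p = 0.996, limma), without set 3 it was 0.04 and without set 4 it was -0.04. TNFSF4 likewise was lower in HuR in 4 of 4 pairs of set 1 and higher in 3 of 4 of set 3 and 3 of 4 of set 4. LTA, LTB and CD40LG were also lower in HuR in 4 of 4 pairs of set 1, so that part is not particular to FASLG. The share of all rows lower in 4 of 4 pairs of set 1 was not counted. For TNFSF4 and CD40LG the values over all sets follow. The mean of TNFSF4 over all sets was -0.08 ± 0.13, and that of CD40LG was -0.04 ± 0.11.

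TNFSF11 had the largest difference of any ligand in a single condition, in stimulated cells at 18 h. The HuR values were 1.84, -0.38 and -0.19 and the IgG1 values 0.07, -0.23 and -0.63, a difference of 0.69 ± 0.55 (interval -0.46 to 1.84; adjusted p = 0.990, limma). The HuR array of set 1 was the highest, and without set 1 the difference was 0.15, without set 3 it was 1.11 and without set 4 it was 0.81. The IgG1 array of set 1 here is the dim one, with a median intensity of 3021, that also entered the TNF difference at 18 h. Its mean over the 4 conditions was 0.19 ± 0.27.

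**Figure D3:**
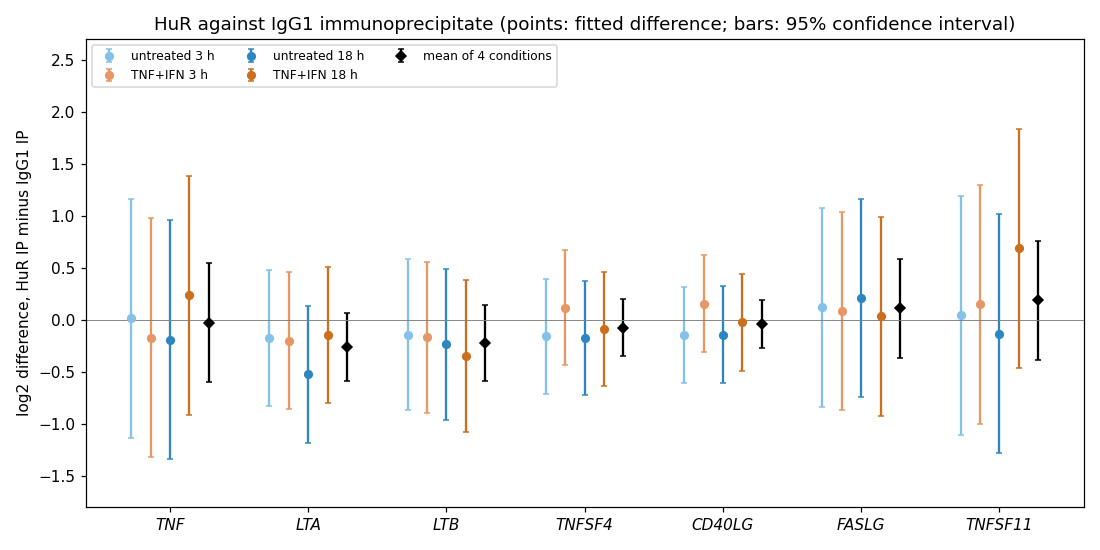
Fitted log2 difference between HuR and IgG1 precipitates (vertical axis) for each ligand (horizontal axis) in the 4 conditions (circles) and in their mean (black diamonds), with 95% confidence intervals from limma. Every interval includes 0, and the mean difference runs from -0.26 for LTA to 0.19 for TNFSF11.

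Whether stimulation changed the HuR to IgG1 ratio was tested as an interaction. No ligand passed at 3 h or at 18 h, and 0% of all rows did at either time (limma). In this fit no ligand lay under an unadjusted p of 0.05, and 0 of the 355 rows did at either time. The estimates ran from -0.19 (TNF) to 0.30 (CD40LG) at 3 h and from -0.17 (FASLG) to 0.82 (TNFSF11) at 18 h. For TNF the intervals were -1.81 to 1.44 at 3 h and -1.20 to 2.05 at 18 h. For CD40LG, the ligand with the narrowest ones, they were -0.35 to 0.96 and -0.54 to 0.78.

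Between 18 h and 3 h no ligand passed in any of 4 comparisons. Of all rows 0% passed in untreated HuR, 0.282% in stimulated HuR, 0% in untreated IgG1 and 0.282% in stimulated IgG1 precipitates. In this fit no ligand had an unadjusted p under 0.05 (limma), and 3, 11, 0 and 9 of the 355 rows did, in the same order. LTB was lower at 18 h in 8 of 12 within-set pairs, with untreated differences of -0.37 ± 0.35 in HuR and -0.28 ± 0.35 in IgG1. How many of all rows had that count was not taken. The largest difference in size was that of TNF in stimulated IgG1 precipitates, -0.70 ± 0.55 (interval -1.85 to 0.44). The set 1 pair differed by -1.46, the largest change with time of the 12 pairs of TNF. That pair holds the same dim stimulated IgG1 array at 18 h as the set 1 difference of -1.87 with stimulation.

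The replicate set separated several ligands more than antibody, agent or time did. Of the variation of FASLG over the 24 arrays 66.2% lay between sets and 8.56% between the 8 groups. The shares were 63.5% and 11.8% for TNFSF11 and 61.1% and 12.3% for TNF. LTB was the ligand with the highest share between groups, 37.4% beside 32.9% between sets, and CD40LG had 30.0% between groups and 3.85% between sets. LTA had 39.6% between sets and TNFSF4 28.1%. The medians over all rows were 31.9% between sets and 19.4% between groups, and unstructured values would give 8.70% and 30.4% from degrees of freedom alone.

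**Figure D4:**
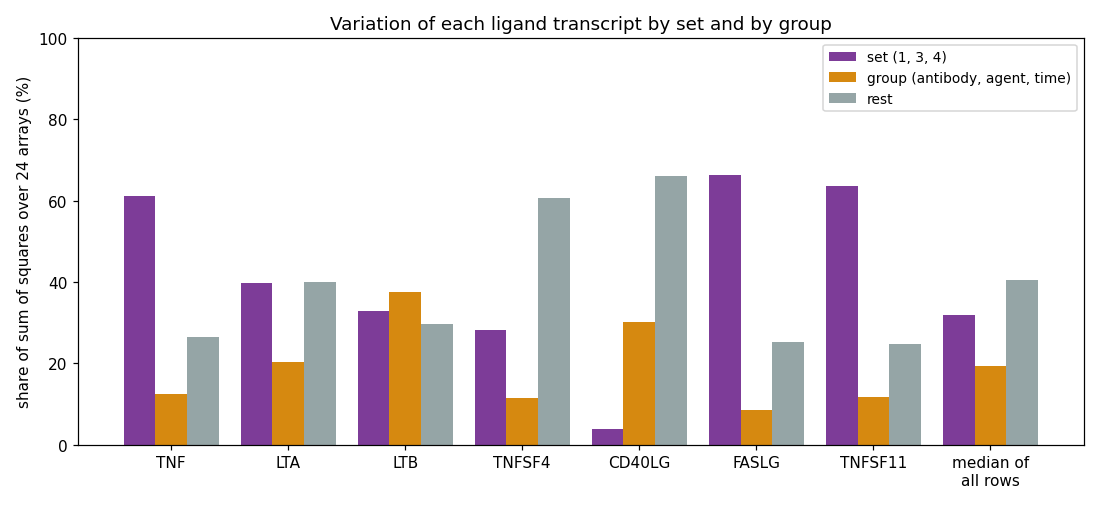
Share of each ligand's sum of squares over 24 arrays (vertical axis, %) that lay between the 3 sets, between the 8 groups and in the rest (bars from left to right), with the median of each share over all 355 rows at the right. Set takes over 60% for TNF, FASLG and TNFSF11.

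A fit with set and group together, added after the data were seen, compared set 1 with the mean of sets 3 and 4. Each set is 1 biological replicate, so the SE and p-values of this comparison measure the spread between arrays, not that between sets. The same holds for the comparison of set 3 with set 4 below. In this fit 46.5% of all rows passed and 5 of the 7 ligands did. TNF was higher in set 1 by 0.99 ± 0.17 (SE; adjusted p = 0.000127, limma), with set 1 values of 0.04 to 1.91 and a median of 1.08 against medians of -0.21 in set 3 and 0.16 in set 4. TNFSF11 was higher by 1.03 ± 0.16 (adjusted p = 5.95e-05), with medians of 0.79, -0.29 and -0.19. TNFSF4 was higher by 0.31 ± 0.12 (adjusted p = 0.0479). LTB (-0.54 ± 0.14, adjusted p = 0.00311) and FASLG (-0.59 ± 0.14, adjusted p = 0.00184) were lower in set 1 (limma). LTA (-0.28 ± 0.13, adjusted p = 0.0813) and CD40LG (0.10 ± 0.12, adjusted p = 0.530) did not pass. Since 46.5% of all rows differed between these sets, the count sets the ligands apart from other rows by little.

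Between set 3 and set 4, 12.1% of rows passed, and 1 ligand, FASLG, did: it was lower in set 3, with a difference of -0.71 ± 0.16 (adjusted p = 0.0115, limma). FASLG was above the array median in 8 of 8 arrays of set 4, in 4 of 8 of set 3 and in 1 of 8 of set 1. TRADD, a receptor adaptor and the row after FASLG in the table, had set means of 0.02, 1.31 and 1.78 in sets 1, 3 and 4, in the same order as those of FASLG (-0.24, -0.00 and 0.71). CD40LG, the row before FASLG, had set means of -0.28, -0.36 and -0.40, in the opposite order. The order of these rows runs by the symbols in the table. Spot positions on the membrane were not used here, and the part of neighbouring spots in these values was not tested. Arrays of set 1 correlated across rows with those of sets 3 and 4 at a median of 0.385 and 0.408, beside 0.766 between sets 3 and 4.

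Of the 5 leukocyte markers 1 passed in the comparison of set 1 with sets 3 and 4. CD3G, a T cell receptor subunit, was higher in set 1 by 1.41 ± 0.25 (adjusted p = 0.000148, limma), and CD28, CD3E, CTLA4 and PTPRC did not pass (-0.11 to 0.24). TNF and TNFSF11 are T cell products among other sources, and the part of other cells in their set 1 values was not tested.

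Receptors of the family were measured for 8 of 25 names: LTBR, TNFRSF1A, TNFRSF1B, TNFRSF11A, TNFRSF21, CD27, TNFRSF8 and TNFRSF9. None passed in the 4 stimulation comparisons, whose receptor differences ran from -0.35 to 0.46. In set 1, where 46.5% of all rows passed, 5 of the 8 receptors did: 2 were higher (TNFRSF1B, the second TNF receptor, by 1.13 ± 0.20, and TNFRSF8 by 0.76 ± 0.12) and 3 lower. The lower ones were LTBR, the lymphotoxin beta receptor, at -1.47 ± 0.18, TNFRSF1A, the main TNF receptor of epithelial cells, at -1.32 ± 0.19, and TNFRSF21 at -0.64 ± 0.19. Of the 18 adaptors and kinases listed 13 were measured, none passed with stimulation, and 5 were lower in set 1, beside the same 46.5% of all rows (CHUK, FADD, IKBKB, RIPK1 and TRADD). These lists were drawn up with earlier results of the data known.

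The rows most like each ligand were found by the root mean square difference over the 24 arrays after each row's own mean was taken off. The closest 2 to LTB were MYD88 (0.31 log2 units) and NFKB2 (0.34), beside a median of 0.57 over all rows. For TNF the closest row was ITGB7 (0.39). The closest 2 were for TNFSF11 RUNX2 (0.29) and TGFA (0.36), and for FASLG NFKBIL1 (0.23) and SELE (0.32). For LTA they were LEP (0.21) and LAT (0.21), for TNFSF4 CRIPTO (0.13) and TLR6 (0.13), and for CD40LG CRIPTO (0.14) and TLR5 (0.14). Among the ligands themselves TNFSF4 and CD40LG were closest at 0.17, and TNF and TNFSF11 differed by 0.48. Arrays of a set share a replicate number, and these distances include the differences between sets.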

How the data were processed

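The authors deposited a table of raw intensity values, 1 column per membrane array, and a second table of the same values multiplied by 1 factor per array (0.542 to 3.64). The intensity values are not normalized, and the array reader, background handling and units are not stated in its labels. Of 384 rows, 355 held values, and 342 of these were named through their accession while 13 kept the file's symbol. Log2 intensity minus the array median was fitted with limma 3.58.1 in R 4.3.3 (lmFit, contrasts.fit, eBayes) over the 8 groups together, for 15 comparisons, and p-values were adjusted over all 355 rows. They measure the spread between 3 biological replicates a group, whose number limits the precision. Set was not a term in this fit, so differences between sets are part of that spread. Arrays of a set are not independent, and the mean over conditions treats them as if they were. The procedure was tested on simulated data. All 7 ligands were named, the 2 rows most like each, and those members of other lists that passed; 1 such row is not reported here. The ligands and lists were chosen with earlier results of these data known. Alternatives were normalization, a filter on dim rows, a replicate block, array weights and leaving out each replicate. Upstream sequences came from RefSeq (GRCh38.p14), for 6 of the 7 ligands.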

Additional observations from a re-analysis of the deposited data

How the results depend on the processing

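No ligand passed in any of the 15 comparisons under 12 of the 13 alternatives, including each fit that left out replicate 1, 3 or 4, where the count of ligands that passed stayed at 0 (lowest 0, highest 0). The exception was the second deposited table used as given and not centred: there 1 ligand, TNFSF11, passed in HuR against IgG1 in stimulated cells at 18 h (2.32, adjusted p = 0.0489, limma), together with 25 of all rows. That table is not centred on the array medians, and the centred value was 0.69. The filter on dim rows left out CD40LG. The range of the TNFSF11 difference over the alternatives was 0.15 to 2.32, and it was 0.15 without replicate 1.

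Among 1350 ligand values under the alternatives none reversed a call, 1230 stayed within 1 SD of the replicates and 119 moved further; 242 changed sign, all of them values that passed neither way. LTB after stimulation in IgG1 precipitates at 18 h ran from -0.85 (second table) and -0.58 (no normalization) to 1.56 (normexp), and in HuR precipitates at 18 h from 0.31 to 1.90 and above 0 in 13 of 13. Without replicate 3 its IgG1 difference at 3 h was -0.10. TNF in IgG1 precipitates at 18 h ran from -2.16 to -0.09. Counts over all rows moved more: the HuR comparison of stimulation at 3 h called 0 to 19 rows and that at 18 h 0 to 33, the IgG1 ones 0 to 18 and 0 to 30, and HuR against IgG1 averaged over conditions 0 to 15.

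With the set number as a replicate block, 0 ligands passed in any comparison after adjustment, but 6 ligand results in 5 of the 15 comparisons lay under an unadjusted 0.05, where the fit without it had none: LTB and TNF with stimulation in IgG1 precipitates at 18 h, LTA in HuR against IgG1 in untreated cells at 18 h and in the mean, TNFSF11 in stimulated cells at 18 h, and TNF between times in stimulated IgG1 precipitates. Each of the 15 comparisons tested 7 ligands, and the share of all rows under an unadjusted 0.05 in this fit is not given here. The count of 6 therefore does not set the ligands apart from other rows. LTB in IgG1 precipitates at 18 h then had an adjusted p of 0.275 in limma. Deviations of arrays with the same set number correlated at a median of 0.643, with a lowest value of 0.0334, and 24 of 24 arrays matched best with one of their own set, a hint from the data and not from the labels that sets share a batch.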
